A study of Mus musculus with 6 samples.

Results

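The baseline escaping index of mouse embryonic stem cells was described here from the 2 control libraries among the 6 libraries of an mNET-seq study of Mettl3. mNET-seq sequences short RNA held by RNA polymerase II (Pol II), so that each fragment marks a place where a polymerase sat. The cells were of the C57BL/6 strain and were kept with serum, LIF, the GSK3 inhibitor CHIR99021 and the MEK inhibitor PD0325901. The other libraries came from a pair of Mettl3 knockouts, KO1 and KO2, with 2 libraries each, and Mettl3 is the catalytic subunit of the enzyme that writes m6A on RNA. The labels of the control libraries carry the name Mettl3_Control and give no further allele or agent, and they do not say whether the replicates were separate cultures. Both columns named for control cells were taken with every transcript that matched GENCODE, which was 68397 of 68473. The unit of description was the gene, represented by its measured transcript with the longest genomic span, and there were 17349 genes, of which 13424 were protein-coding and 3925 were not.

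After it starts transcription, Pol II commonly halts a short way downstream of the start site, where the factors DSIF and NELF hold it. The kinase P-TEFb releases it into the gene body, and a polymerase that is not released can terminate early. An escaping or travelling index sets the polymerase signal in the gene body against that near the start, and genes of housekeeping, developmental and stimulus-response classes are known to differ in how long polymerase stays near the start.

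The deposited index is a log2 ratio within a transcript; the sources used here do not give its windows. By its name, and because it rose with span, a higher value is read here as more signal downstream relative to the start. It is a measure of position along a transcript, not of RNA abundance or of how much polymerase a gene carries, and the read depth behind it is unknown. The median over genes was 4.15 in control replicate 1 and 4.17 in control replicate 2, and the middle 50% of genes lay between 2.08 and 5.81 in the first and between 2.08 and 5.84 in the second. Values ran from -5.70 to 13.32 in replicate 1 and from -6.17 to 13.22 in replicate 2. A mean index below 0 was found in 1458 genes, or 8.40%. No transcript had the identical value in both libraries.

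The libraries gave close values for most genes. The median absolute difference between them was 0.31 over all genes, 0.29 over protein-coding genes and 0.41 over the others. It exceeded 1 in 10.4% of genes. Across genes, which are not independent replicates, Pearson's r between the libraries was 0.973 for the index. Some values were coarse: 831 genes in replicate 1 and 845 in replicate 2 had an exact value that 20 or more genes of that library shared, as quotients of small whole numbers would be. These are called low-resolution values below. They touched 1359 genes (7.83%) in either library, and in these the median difference between libraries was 0.57, against 0.30 in the rest.

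All 8 marker genes of embryonic stem cells on the list had an index, among them Pou5f1, Sox2, Nanog, Klf4 and Esrrb. Of the markers of other cells, 3 of 6 for fibroblasts had one (Col1a1, Thy1 and Pdgfrb), 1 of 4 for trophoblast (Gata3), 0 of 4 for endoderm and 0 of 4 for blood. An entry shows that an index was given, not how much RNA a gene made, so these entries do not measure a share of other cells.

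The index rose steeply with the genomic span of the transcript. The slope of a straight line on log10 span was 3.10 in replicate 1 and 3.12 in replicate 2, or 0.932 and 0.938 for each doubling of span. The fitted index at 1 kb was 0.28 and 0.27, at 10 kb it was 3.37 and 3.38, and at 100 kb it was 6.47 and 6.50. Span accounted for 57.8% of the variance of the index in replicate 1 and 58.0% in replicate 2. A ratio not divided by length would have a slope of 1 per doubling if signal were even along the gene body. Both fitted slopes lay a little under 1 over all spans together. The windows are unknown, and whether the index arises in this way was not tested. With spliced length in place of span, Pearson's r across genes fell from 0.760 to 0.495 in replicate 1 and from 0.762 to 0.495 in replicate 2.

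**Figure D1:**
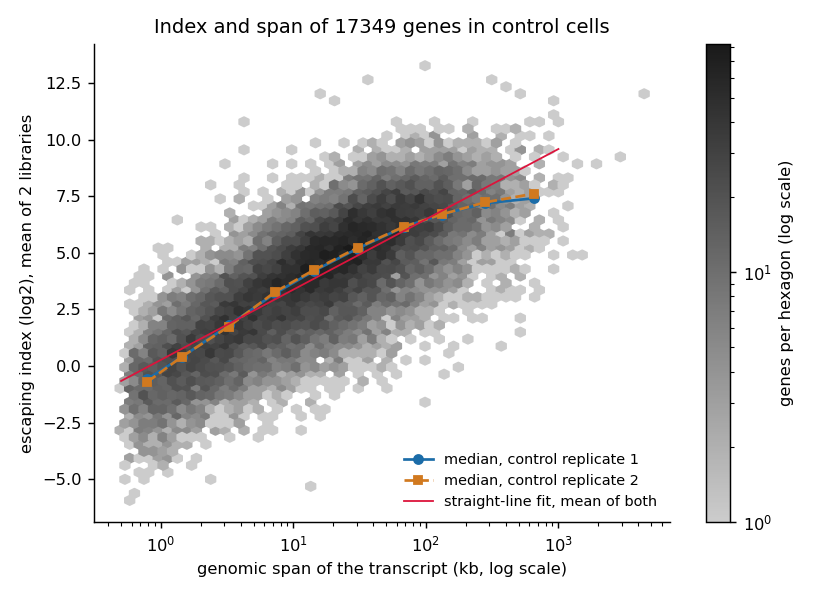
The mean index of both control libraries (log2, y axis) is plotted against genomic span (kb, log scale, x axis), with hexagons shaded by the number of genes on a log scale, points at the median of each span class in each library, and the straight-line fit averaged over both. The medians of the libraries overlie each other and climb from about -0.59 below 1 kb to 7.50 at 500 kb and over, bending below the line among the longest genes.

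The relation was not straight. Below 31.6 kb (11841 genes) the index rose by 1.10 per doubling of span in both libraries, and above it (5508 genes) by 0.540 and 0.558. In the 613 genes under 1 kb the median index was -0.58 and -0.70, a linear ratio of 0.664 for the mean of both libraries. Genes of 10 to 20 kb had medians of 4.20 and 4.24 (n = 3016), and genes of 100 to 200 kb had 6.69 and 6.70 (n = 1089). The 96 genes of 500 kb or more reached 7.41 and 7.61. Because of this bend, the residual from the straight line was on the median 0.42 at 10 to 20 kb, -0.52 below 1 kb and -1.66 at 500 kb and over. A running median over 50 bins of span was therefore used as an alternative wherever a group of genes was unusually short or long.

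The same fit in the knockouts showed where the control line stood. The slope per doubling was 0.896 and 0.898 in KO1 and 0.886 and 0.887 in KO2, so both controls lay above all 4 knockout libraries. The mean was 0.935 in control and 0.892 in the knockouts, a difference of 0.0431 (exact permutation test over 15 splits, two-sided, p = 0.13, the smallest this design allows). The fitted index was higher in control by 0.23 at 1 kb, by 0.37 at 10 kb and by 0.51 at 100 kb, each with the same p of 0.13 by the exact permutation test. With 2 libraries against 4, none of these could pass a threshold of 0.05.

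All values from here on are residuals, in log2 units above or below the line fitted to all 17349 genes in that library, unless the index itself is named. They are described over genes without a test, since genes of a library are not replicates of a condition. The residual had an SD of 1.71 across genes in each library, and the libraries correlated at r = 0.935 across genes.

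Protein-coding genes lay above the line, with medians of 0.23 and 0.25, and 56.5% of the 13424 had a mean residual above 0. Long noncoding genes lay below it, at -0.42 and -0.47, with 39.8% of 2023 above 0. The difference between the classes was -0.65 in replicate 1 and -0.73 in replicate 2, and -0.26 with the mean over a gene's distinct transcripts. Among noncoding types, intergenic lincRNA genes were nearest the line (-0.25 and -0.32, n = 769), followed by processed_transcript genes (-0.32 and -0.33, n = 351) and antisense genes (-0.40 and -0.50, n = 645). Noncoding genes that leave a bidirectional promoter were at -0.80 and -1.01 (n = 104). Sense_intronic genes, which lie within introns of a host on the same strand, were at -0.99 and -1.09 (n = 140). TEC models, whose annotation awaits experimental support, were at -0.90 and -0.91 (n = 844).

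Processed and unprocessed pseudogenes did not follow the long noncoding genes. Processed pseudogenes, copies of spliced RNA put back into the genome, were at -0.11 and -0.03 (n = 789), and against the running median they stood at 0.39. Unprocessed pseudogenes, which arise by duplication, were at 0.43 and 0.43 (n = 101). Those annotated as transcribed were at 0.04 and 0.13 if processed (n = 78). They were at -0.11 and -0.15 if unprocessed (n = 59), and the latter stood at -0.38 against the running median. Reads of a pseudogene can also match its parent gene, so these values are uncertain. The coarse values fell unevenly: 3.58% of protein-coding genes had one, against 21.3% of long noncoding genes and 30.9% of processed pseudogenes, and their part in these differences was not tested beyond leaving them out, which moved the difference between long noncoding and protein-coding genes to -0.59.

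**Figure D2:**
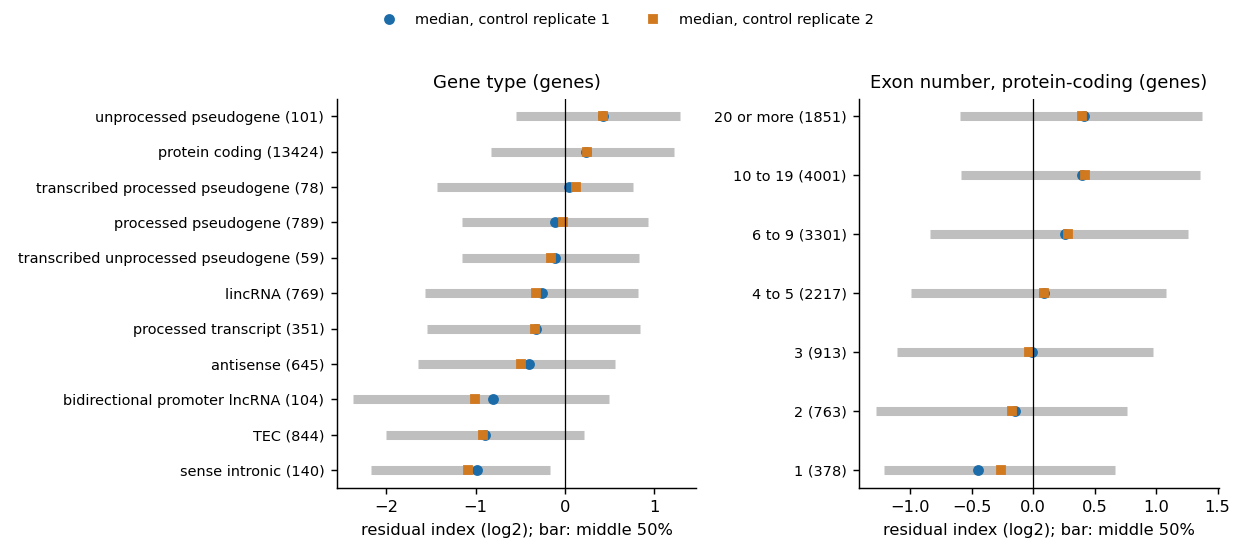
Residual index (log2, x axis) by gene type (left) and by the exon number of protein-coding genes (right), with the number of genes in brackets, the median in each control library as points and the middle 50% of genes, from the mean of both libraries, as bars. Protein-coding genes sit above 0 and most noncoding types below it, and the medians of coding genes climb from -0.45 and -0.26 with 1 exon to 0.41 and 0.40 with 20 or more.

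Models of one gene could differ widely. Of 11401 genes with more than 1 measured transcript, 11224 had more than 1 distinct value, and the residual of their transcripts spanned 2.10 on the median in replicate 1. In a fit over all transcripts, those of the protein_coding class were at 0.25 in both libraries (n = 33985) and those subject to nonsense-mediated decay at 0.14 and 0.15 (n = 5118). Retained_intron models were at -0.30 and -0.29 (n = 15199), and processed_transcript models at -0.20 and -0.19 (n = 9557). Models of these classes can start inside a gene rather than at its promoter, but their starts were not measured here. The values of a gene below are those of its longest model, and averaging over its transcripts changes many of them.

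Protein-coding genes with more exons had a higher residual. Single-exon genes were at -0.45 and -0.26 (n = 378), genes with 2 exons at -0.15 and -0.17 (n = 763) and genes with 3 at -0.01 and -0.03 (n = 913). The medians were 0.09 in both libraries with 4 to 5 exons, 0.26 and 0.29 with 6 to 9, and 0.40 and 0.42 with 10 to 19. Beyond that the rise against the straight line stopped, at 0.41 and 0.40 with 20 or more (n = 1851). The order from 1 to 19 exons was the same in both libraries, although the single-exon medians differed by more between libraries than those of any other class. Against the running median, single-exon genes stood at -0.04, above genes with 2 exons (-0.18) and 3 exons (-0.22). There the rise went on past 19 exons, from 0.22 with 10 to 19 to 0.40 with 20 or more.

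Exon number and span go together (Pearson's r = 0.613 across protein-coding genes, on log scales). The index was therefore also compared within a window of span, although span was not matched inside it. The part that span still plays inside the window was not tested. Among protein-coding genes of 10 to 30 kb, the index itself was 4.25 and 3.97 with 2 exons (n = 147), 4.16 and 4.15 with 4 to 5 (n = 868), 4.97 and 4.96 with 10 to 19 (n = 1368), and 5.26 and 5.35 with 20 or more (n = 327). In a joint fit over protein-coding genes, a doubling of span went with 0.701 and 0.705 and a doubling of exon number with 0.355 and 0.358. Over all genes the values were 0.729 and 0.733 for span and 0.405 and 0.410 for exons. By the length of the first intron, genes in the lowest quintile (737 bases or less) had residuals of 0.45 and 0.44, and those in the top quintile (16392 bases or more) were at -0.01 in both. These quintiles also differed in median span, 8174 against 85656 bases, and the part of span in this difference was not tested.

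Small RNA genes within the span made a modest difference overall. The 1442 protein-coding genes that hold a small RNA gene of any kind were above the rest by 0.15 and 0.13, but this difference turned to -0.012 with the mean over a gene's transcripts. Small nucleolar RNAs (snoRNAs), which guide modification of ribosomal RNA and are cut from introns of their hosts, stood out more. The 216 protein-coding genes with a snoRNA on the same strand were at 0.83 and 0.94, above the others by 0.61 and 0.70, and 69.9% of them lay above 0 against 56.3%. An excised snoRNA lies within the host's reads, and its part in the index was not tested.

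Other features of position moved the residual little. The 2239 protein-coding genes with a divergent start within 1000 bases were above the rest by 0.16 and 0.18, and by 0.0275 with the mean over transcripts. The 143 with a structured RNA gene within 500 bases of the start differed from the rest by 0.06 and -0.00, which is no more than the spread between libraries. Genes overlapping another gene of 1 kb or more differed by 0.02 and 0.04. The 434 genes of the X chromosome were at 0.03 and 0.05, below the other protein-coding genes by 0.21 and 0.22.

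The medians of gene families, taken by symbol, ranged more widely than these differences. Many families are small, and the part of family size in this range was not tested. The largest were Zfp genes (n = 370), solute carriers (n = 238) and transmembrane Tmem genes (n = 177). Their medians were 0.34, 0.01 and 0.41 on the mean of both libraries. Of 44 families, 40 had 8 or more measured genes, and 27 of these had a median above the line. Protein-coding genes as a whole also lay above it, with medians of 0.23 and 0.25 and 56.5% above 0. The highest medians were those of snoRNA hosts, cytosolic ribosomal proteins, hnRNP proteins and chaperonin subunits, and the lowest were those of protocadherins, immediate early genes, collagens and Sox genes. The distance from the line depended on the model taken: with the mean over a gene's distinct transcripts the median was 0.88 for hnRNP proteins, 0.81 for translation initiation factors, 0.42 for proteasome subunits, 0.38 for Mediator subunits, 0.14 for ubiquitin-specific proteases, 0.18 for aminoacyl-tRNA synthetases, 0.22 for kinesins, 0.36 for DDX and DHX helicases and 0.44 for Sm and LSm proteins, each below the value given for the family further on.

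**Figure D3:**
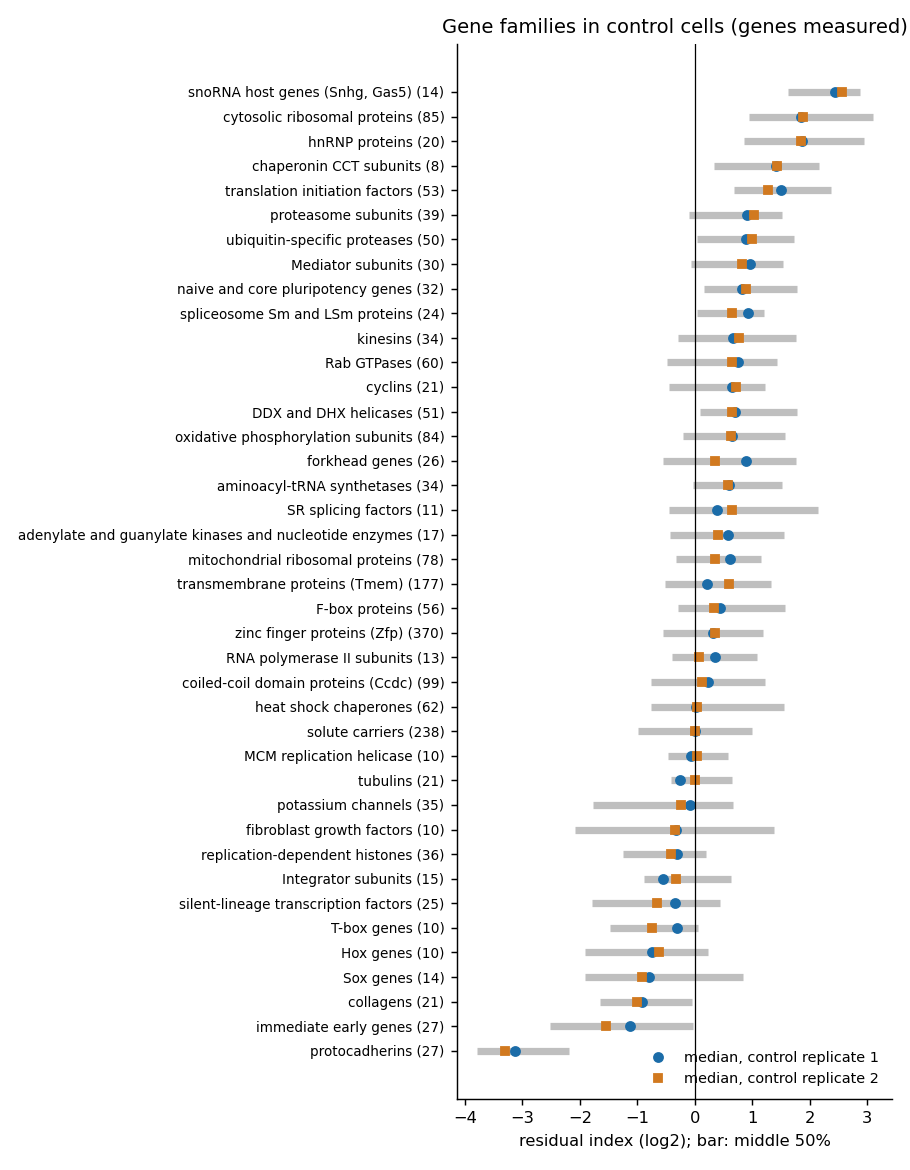
Residual index (log2, x axis) of 40 gene families (y axis, number of measured genes in brackets), with the median in each control library as points and the middle 50% of members, from the mean of both libraries, as bars. The snoRNA hosts, cytosolic ribosomal proteins and hnRNP proteins have medians of 1.86 or more in both libraries, and the protocadherins stand alone at -3.13 and -3.30.

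The 14 snoRNA host genes taken by symbol (Snhg genes and Gas5) had medians of 2.44 and 2.57, and 13 of 14 lay above 0. Gas5, which holds several snoRNAs in its introns, had an index of 10.25 and 11.19 and a residual of 8.13 and 9.07. Snhg12 had residuals of 4.40 and 4.53. The lowest were Snhg8 (0.76 and 0.62) and Snhg14 (-0.98 and -0.96), a host in the imprinted Prader-Willi region. These medians rest on the full-length models: with the mean over a gene's distinct transcripts the family stood at 0.76.

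The cytosolic ribosomal proteins, which build the ribosome of the cytoplasm, were at 1.86 and 1.88, and 77 of 85 lay above 0. Rpl21 had an index of 9.50 and 9.25 at a span of only 4.14 kb, a residual of 7.31 and 7.06. The lowest member was Rpl3l, a paralogue used in muscle, at -1.20 and -2.12. Ribosomal protein genes have many near-identical processed copies with which reads can be shared, so the values of single members are uncertain. With the mean over distinct transcripts the median was 0.58.

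Other families of RNA and protein synthesis stood above the line too. The hnRNP proteins, which package nascent RNA, were at 1.87 and 1.86 (17 of 20 above 0), with Hnrnpul2 at 5.15 and 5.20 and Hnrnpl at -1.12 and -0.99. Translation initiation factors were at 1.50 and 1.28 (47 of 53), from Eif4a2, an RNA helicase, at 5.57 and 5.41 to Eif2ak4, the kinase that senses free tRNA, at -2.00 and -2.26. Aminoacyl-tRNA synthetases were at 0.60 and 0.58 (25 of 34), and Lars2, which charges mitochondrial tRNA with leucine, was far above the others at 6.91 and 6.78. The next, Rars2, was at 3.37 and 3.41. The DDX and DHX helicases were at 0.70 and 0.65 (39 of 51), and the Sm and LSm proteins of the spliceosome at 0.92 and 0.64 (18 of 24).

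Mitochondrial ribosomal proteins lay nearer the line than their cytosolic counterparts, at 0.61 and 0.35 (55 of 78 above 0), with Mrps17 at 4.33 and 3.82 and Mrpl27 at -2.08 and -2.32. Subunits of oxidative phosphorylation were at 0.64 and 0.63 (58 of 84). Proteasome subunits were at 0.91 and 1.04 (27 of 39). Psma5, a subunit of the core, had residuals of 3.28 and 4.18, whereas Psmb9, of the immunoproteasome, had -1.33 and -1.83. Psmb11, of the thymic proteasome, had -1.81 and -2.80, a low-resolution value. The 8 chaperonin genes had medians of 1.41 and 1.44, but this became -0.13 with the mean over transcripts.

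The transcription machinery itself was mixed. Polr2a, the catalytic subunit of Pol II, had an index of 1.74 in both libraries and a residual of -2.85 and -2.86, the lowest of the 13 subunit genes. Polr2b, the second largest subunit, was at 3.22 and 2.49. Mediator subunits, which link activators to Pol II, were at 0.96 and 0.82 (21 of 30 above 0). Subunits of Integrator, which ends transcription near the start of many genes, were at -0.55 and -0.33 (6 of 15 above 0), and this sign turned with spliced length (0.10).

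Further large families lay above the line or on it. Ubiquitin-specific proteases were at 0.89 and 1.00 (38 of 50 above 0), Rab GTPases at 0.75 and 0.65 (41 of 60) and kinesins at 0.66 and 0.78 (24 of 34). The Zfp zinc finger genes, the largest family with 370 members, were at 0.32 and 0.35, but at 0.05 against the running median and 0.04 with spliced length. Solute carriers were at 0.01 in both libraries (122 of 238 above 0, or 51.3%, against 56.5% of protein-coding genes). Heat shock chaperones were at 0.03 and 0.04, with 51.6% above 0. Their range was wide, from Hspe1, the mitochondrial co-chaperonin, at 4.54 and 5.14 to Dnajb4 at -5.13 and -5.02. Against the running median the solute carriers stood at -0.22 and the heat shock chaperones at -0.19, so both signs depended on the fit.

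Genes of the pluripotent state were above the line as a list, at 0.83 and 0.90, with 25 of 32 above 0, against 56.5% of protein-coding genes. The median of the list was 0.71 against the running median, 0.67 with the mean over distinct transcripts and 0.46 with spliced length. Nanog had an index of 4.85 and 4.53 and a residual of 1.92 and 1.60. Pou5f1 had an index of 2.78 and 2.90 and a residual of 0.40 and 0.52, and its residual turned to -0.24 with spliced length. Sox2 went the other way in both libraries, with an index of -1.35 and -1.43 and a residual of -2.60 and -2.67. Sox2 is a single-exon gene of 2.06 kb inside the noncoding gene Sox2ot. The highest of the list were Tbx3 (3.64 and 3.54), a T-box factor of naive cells, and Lefty2 (2.96 and 2.53), an antagonist of Nodal, and beside Sox2 the lowest was Nr5a2 (-2.00 and -2.17), a nuclear receptor. Mettl3, the gene the study deleted, had an index of 2.69 and 2.46 in control and 2.10 to 2.44 in the knockout libraries. Against each library's own line its residual was -0.72 and -0.96 in control and -0.85 to -0.65 in the knockouts, so the ranges overlapped.

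Among the lists of developmental regulators, most of which act in later lineages, the medians of Sox, Hox, T-box and lineage factor genes sat below the line, with few members measured. Sox genes were at -0.80 and -0.91 (5 of 14 above 0), Hox genes at -0.73 and -0.63 (3 of 10) and T-box genes at -0.32 and -0.75 (3 of 10). The list of transcription factors of other lineages was at -0.33 and -0.66 (11 of 25). Forkhead genes were at 0.90 and 0.35, with 16 of 26 above 0 (61.5%, against 56.5% of protein-coding genes). Among them Foxk2 was at 4.03 and 3.33 and Foxp2 at -5.22 and -4.96. These medians depended on the processing: with the mean over distinct transcripts that of the lineage factors was -0.19, of the Hox genes -0.39 and of the Sox genes -0.45, and with spliced length that of the forkhead genes was -0.01. The first 4 of these lists held more coarse values than most: 30% of the Hox genes, 28.6% of the Sox genes, 20% of the T-box genes and 20% of the lineage factors had one, and their part in the medians was not tested beyond leaving them out, which gave -0.74, -0.98, -0.59 and -0.39 in that order.

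Immediate early genes, which respond within minutes to a stimulus, were at -1.12 and -1.55, and 20 of 27 lay below 0. Myc had an index of -1.16 and -0.83 and a residual of -3.59 and -3.27. Zfp36, which binds AU-rich RNA and speeds its decay, had an index of -2.14 and -1.66 and a residual of -3.63 and -3.14. Nr4a1, a nuclear receptor of the same class, went against the others at 2.59 and 2.66, and Mcl1, a survival factor, was at 2.17 and 2.38.

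Replication-dependent histone genes are short and mostly without introns, and at such spans the straight line runs above the median of all genes. They were at -0.31 and -0.40, with 15 of 36 above 0, but at 0.06 against the running median. With spliced length the median was -2.54, and with the line fitted to protein-coding genes alone it was -0.91, so their place depended on the fit. The members ranged from Hist1h3d at 2.34 and 2.42 to Hist1h4a at -3.65 and -3.56. Histone genes are near-identical to each other, so their single values are uncertain.

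Protocadherins were the lowest family by far. These adhesion molecules of the nervous system had medians of -3.13 and -3.30, and 26 of 27 lay below 0 in both libraries. The exception was Pcdh1, at 0.33 and -0.63. Pcdh17 was lowest, with an index of -1.97 and -1.09 over 95.4 kb. Many members belong to clusters whose variable first exons share the same downstream exons, so their values are not independent of each other. Collagens were also low, at -0.96 on the mean of both libraries (5 of 21 above 0), from Col5a3 at 1.75 and 2.11 to Col22a1 at -4.52 and -4.65. With spliced length the median was -1.90 for protocadherins and -0.39 for collagens.

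The genes at the extremes were chosen by their values, so what follows describes them without a test. Each library's 100 highest and 100 lowest residuals were taken, and 61 genes were among the highest in both and 67 among the lowest in both. At the boundary the values were close: the last gene inside and the first outside the highest 100 of replicate 1 were Numbl at 4.15 and Kxd1 at 4.14, and for the lowest they were Fam69c at -4.91 and Angpt2 at -4.90, the last a low-resolution value. The 100 highest of replicate 1 had a median of 4.53 there, 4.38 in replicate 2 and 4.20 to 4.56 in the knockout libraries, and all 100 stayed above 0 in each of the 5 other libraries. The 100 lowest had a median of -5.40 where chosen, -5.14 in replicate 2 and -5.41 to -5.12 in the knockouts, and all 100 stayed below 0.

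**Figure D4:**
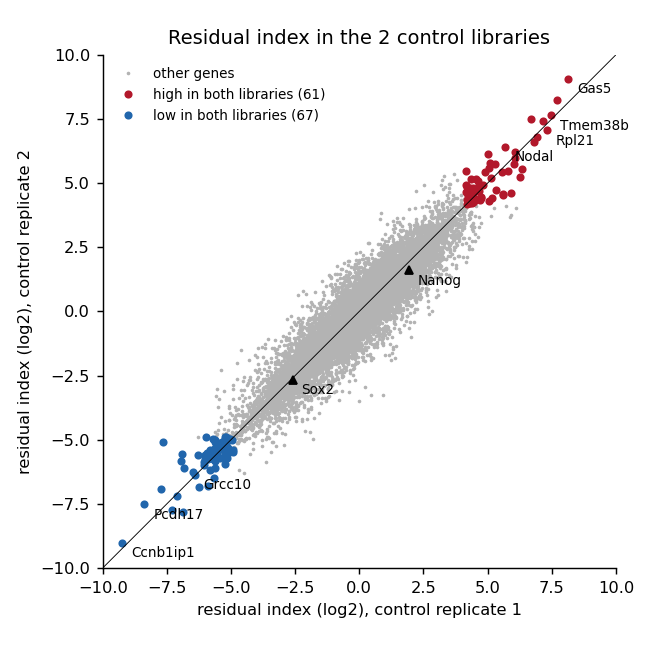
Residual index (log2) of 17349 genes in control replicate 1 (x axis) and replicate 2 (y axis), with the 61 genes high in both and the 67 low in both in colour, and the line of equality. Sox2 and Nanog, marked by triangles, lie on opposite sides of 0 and inside the main cloud, while Gas5 and Ccnb1ip1 mark the far ends.

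The high and the low genes differed in make-up. The 61 high genes had a median span of 8.47 kb, and 34 of them were under 10 kb (55.7%, against 38.5% of all genes). Ribosomal proteins made up 9 of them (14.8%, against 0.490% of all genes), and 11 held a snoRNA on the same strand (18%, against 1.42%). The 67 low genes were long, with a median span of 46.1 kb, and 20 reached 100 kb or more (29.9%, against 9.83% of all genes). Another gene overlapped 46 of the low genes (68.7%) and 33 of the high genes (54.1%), against 50.4% of all genes. The part of span in these shares was not tested. Of the low genes, 3 were protocadherins (4.48%, against 0.156%). Against the running median, 58 of the 61 and 56 of the 67 were still among the 100 at their end.

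The highest protein-coding gene was Tmem38b, a potassium channel of the endoplasmic reticulum (chromosome 4, 53826045 to 53862019, mm10). Its index was 12.56 and 12.76, a residual of 7.47 and 7.65, and 11.57 to 12.90 in the knockouts. The 5S ribosomal RNA gene n-R5s185 lies within its span. Lars2 (chromosome 9, 123366927 to 123462664) had the highest index of any protein-coding gene named, 13.32 and 13.22. Whether overlapping RNA genes or repeats within these spans supply the reads was not tested.

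Among further high genes were parts of the translation machinery. Rpl21, given above, was joined by Rpl35 (residual 6.34 and 5.55), Rplp2 (5.80 and 5.48) and Rpl39 (5.02 and 6.14). Eef1a1, the factor that brings tRNA to the ribosome, had an index of 8.60 and 9.04 and a residual of 5.30 and 5.73. Rpl21, Rplp2, Rpl39 and Eif4a2 each hold a snoRNA. Tmsb10, a small protein that binds actin monomers, was at 6.26 and 5.24. Srsf10, a splicing regulator, was at 6.04 and 5.74. Several of these depend on the model taken: with the mean over distinct transcripts the residual was 0.09 for Tmsb10, 0.10 for Eef1a1, 1.20 for Eif4a2, 1.35 for Rpl39, 1.84 for Rpl21, 1.87 for Lars2, 1.99 for Rplp2, 2.19 for Srsf10, 3.61 for Rpl35 and 4.32 for Tmem38b.

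Nodal and Zfp791 have a single measured model each, so the choice of model does not bear on them. Nodal, the TGF-beta family ligand that patterns the early embryo (chromosome 10, 61417972 to 61425338), had an index of 8.65 and 9.39 over 7.37 kb, a residual of 5.68 and 6.42, and 8.50 to 10.05 in the knockouts. Zfp791, a zinc finger gene (chromosome 8, 85109647 to 85119637), had an index of 9.43 and 9.37 and a residual of 6.06 and 5.99, and the microRNA gene Gm23388 lies in its span. Both libraries placed Nodal far from the line, and the residual was 5.22 or more under every other setting tried.

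The noncoding genes highest in both libraries were Gas5, Gm15564, Zfas1, Gm26553 and Gm11889. Gas5 (chromosome 1, 161034607 to 161038539) and Zfas1, whose residuals were 6.70 and 7.50, are snoRNA hosts. Gm15564, an antisense gene overlapping Kpna1 and Parp9, had an index of 11.73 and 12.28. Gm11889 is a processed pseudogene of 1.08 kb at 4.64 and 4.78, and at 2.40 with spliced length. With the mean over transcripts the residual was 1.79 for Gas5, 3.10 for Zfas1 and 3.17 for Gm15564.

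The lowest residual of all genes was that of Ccnb1ip1, a ubiquitin ligase of meiotic crossing-over (chromosome 14, 50793805 to 50807732). Its index was -5.44 and -5.18, its residual -9.26 and -9.01, and its index in the knockouts -5.07 to -4.75. Rpph1, the RNA of ribonuclease P, lies within 500 bases of the start of this model. With the APPRIS principal transcript, the model annotated as the main protein isoform, the residual was only -0.16, and it was -4.23 with the mean over transcripts and -5.22 with a pseudocount of 0.4. Grcc10, at -6.41 and -6.38, has the U7 snRNA gene Rnu7 at its start in the same manner, and its index was -5.08 and -5.05. The residual of Grcc10 was -3.64 with the mean over transcripts and -2.92 with the pseudocount. Abundant RNA of such genes would fall near the start of the longer gene, but its part in the index was not tested.

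Long genes made up much of the rest of the low end. Slc24a3, a sodium, calcium and potassium exchanger, had an index of 1.05 and 0.65 and a residual of -7.28 and -7.73. Its only measured model, of 399.6 kb, is of the processed_transcript class. Anks1b, a synaptic scaffold, was at -6.87 and -7.82, Nrxn3, a presynaptic adhesion molecule, at -7.10 and -7.21, and Unc13c, which primes synaptic vesicles, at -6.82 and -6.11. Robo2, a receptor for axon guidance, was at -6.89 and -5.55, from a retained_intron model of 62.0 kb, the only one measured for it. Cdh7, a cadherin, was at -5.66 and -6.48, and Pcdh11x, at 620.3 kb, at -5.81 and -6.19. The residual of the longest depended on the shape of the fit, since Pcdh11x stood at -4.25, Unc13c at -5.03 and Nrxn3 at -5.64 against the running median. With spliced length the residual was -3.87 for Slc24a3, -4.58 for Anks1b, -3.17 for Nrxn3, -4.02 for Unc13c and -3.20 for Pcdh11x.

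The remaining low protein-coding genes were of mixed kinds. Fam227b was at -7.71 and -6.94, Filip1, which binds filamin, at -6.96 and -5.83, and Sorbs2, an adaptor of the actin cytoskeleton, at -6.47 and -6.26. Catsperg1, an accessory subunit of the sperm calcium channel, was at -6.03 on the mean of both libraries. Reg2, a secreted protein of the pancreas, differed most between libraries, with an index of -4.04 and -1.46. Low noncoding genes included Gm12694 (-6.24 and -6.85), Gm48617 (-5.89 and -6.82), Gm45191 (-5.61 and -6.11), 6530409C15Rik (-5.94 and -5.53) and Gm3764 (-5.59 and -5.70), the last of which holds Mir9-1. With spliced length the residual was -1.65 for Filip1, -3.73 for Fam227b, -3.09 for Gm12694, -2.55 for Gm48617 and -2.11 for 6530409C15Rik, and with the pseudocount it was -3.82 for Gm45191.

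By the index itself rather than the residual, long genes took most of the top places among protein-coding genes. After Lars2 came Cmss1 (12.64 and 12.93, 304.8 kb), Tmem38b, Camk1d, a calmodulin-dependent kinase (12.33 and 12.20, 421.1 kb), and Gm20388 (11.93 and 11.94), a model of 4435 kb that overlaps many other genes. The residual of Gm20388 was only 0.36 and 0.31. The lowest protein-coding genes by index, beside Ccnb1ip1 and Grcc10, were the histone gene Hist1h4a (-4.20 and -4.13), Elobl (-3.42 and -3.56) and the olfactory receptor gene Olfr166 (-3.68 and -3.21). With the pseudocount of 0.4 the residuals of these genes were -1.11 for Hist1h4a, -2.78 for Elobl and -1.81 for Olfr166, in place of -3.60, -4.87 and -3.77.

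Promoter sequence was compared over 10622 protein-coding genes, 81.2% of those eligible, using RefSeq promoters of GRCm38.p6 from 250 bases before to 50 bases after the start. CpG dinucleotides were counted as observed over expected from the C and G content, and the word TATAAA was searched on the gene's strand from 40 to 20 bases before the start, where a TATA box lies. The word was found in 125 genes (1.18%). To show what these classes look like, 60 bases (50 before the start and 10 from it) are printed for the 4 genes with TATAAA and the lowest residuals and for the 4 genes with the highest residuals, among promoters starting within 10 bases of the transcript; they were chosen after their values were seen. In the first set capitals mark TATAAA.
Il33 (chr19:29945740-29945799, plus strand): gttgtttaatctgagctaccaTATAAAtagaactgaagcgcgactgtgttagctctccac
Mylip (chr13:45389692-45389751, plus strand): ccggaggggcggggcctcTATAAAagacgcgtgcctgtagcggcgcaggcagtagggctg
Nppc (chr1:86670564-86670623, minus strand): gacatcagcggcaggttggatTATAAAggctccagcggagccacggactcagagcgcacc
Lbh (chr17:72918255-72918314, plus strand): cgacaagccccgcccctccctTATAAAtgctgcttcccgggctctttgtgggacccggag
In the second set capitals mark CpG.
Lars2 (chr9:123366877-123366936, plus strand): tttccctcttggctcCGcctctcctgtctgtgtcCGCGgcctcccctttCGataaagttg
Nodal (chr10:61417922-61417981, plus strand): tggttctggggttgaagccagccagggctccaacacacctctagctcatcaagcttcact
Tmsb10 (chr6:72958739-72958798, minus strand): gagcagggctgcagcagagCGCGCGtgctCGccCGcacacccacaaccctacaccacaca
Rpl19 (chr11:98026660-98026719, plus strand): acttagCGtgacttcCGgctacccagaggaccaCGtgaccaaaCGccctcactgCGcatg

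The TATAAA genes shown were low in both libraries. Il33, an alarmin cytokine, had an index of -2.09 and -1.67 and a mean residual of -5.80. Mylip, a ubiquitin ligase that degrades the LDL receptor, was at -5.73 and -5.49, Nppc, the C-type natriuretic peptide, at -4.72 and -5.14, and Lbh, a transcription cofactor, at -4.83 and -4.74. The printed stretches of the high genes were unlike each other: Tmsb10 and Rpl19 hold 5 CpG each, Lars2 holds 4, and Nodal holds 0. Rpl19 had residuals of 5.93 and 4.62.

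Across all 10622 genes, the residual rose with CpG. From the lowest to the highest quintile of CpG observed over expected, the medians were -0.32 and -0.30, 0.10 and 0.12, 0.35 and 0.36, 0.42 and 0.42, and 0.56 and 0.59. Spearman's rho across genes was 0.184 and 0.186 for CpG and 0.0885 and 0.0888 for GC content, as descriptions of weak trends. Genes with TATAAA had medians of -0.87 and -1.01, against 0.25 and 0.28 for the other 10497, and 29.6% of them lay above 0 against 57.1%. The difference was -1.20 on the mean of both libraries and -1.26 without histone and immediate early genes. In the upper 4 quintiles of CpG the difference was -1.36 in replicate 1 and -1.39 in replicate 2 (78 genes with the word, 8419 without). In the lowest quintile it was -0.24 and -0.78 (47 with, 2078 without), so there the libraries differed by more than the value in replicate 1. With promoters that start within 50 bases of the transcript it was -1.40 and -1.47 in the upper 4 quintiles (62 with the word) and -0.05 and -0.53 in the lowest (28 with it). Whether the difference itself varies with CpG was not tested. Genes with the word were also shorter, with a median span of 9.75 kb against 22.7 kb. A match is a word in the sequence and does not show that a factor binds there.

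**Figure D5:**
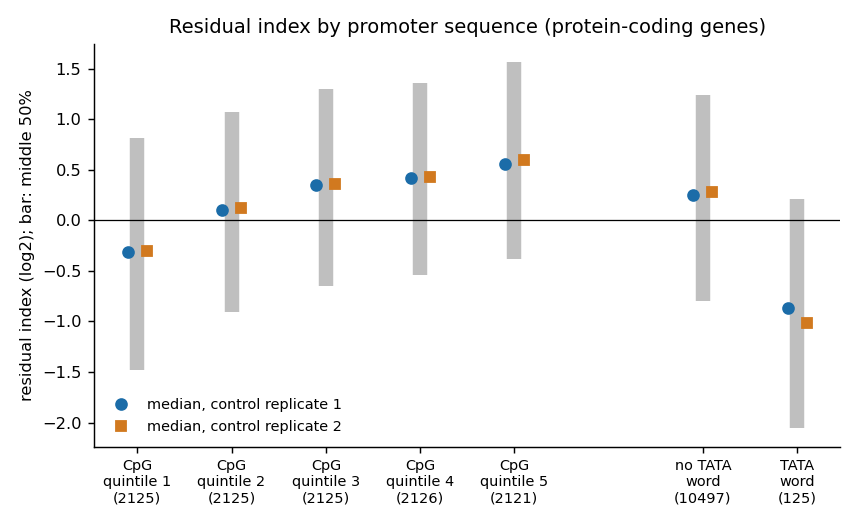
Residual index (log2, y axis) of protein-coding genes by quintile of promoter CpG observed over expected (quintile 1 is the lowest) and by presence of the word TATAAA 40 to 20 bases before the start, with the number of genes in brackets, the median in each control library as points and the middle 50% of genes, from the mean of both libraries, as bars. Medians climb from -0.32 and -0.30 in the lowest quintile to 0.56 and 0.59 in the highest, and genes with the word lie at -0.87 and -1.01.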

How the data were processed

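mNET-seq was measured in 6 libraries, and the 2 control libraries were described. The values are log2 values deposited by the authors in a single table with 68473 transcripts and no missing entry, under the name escaping index. They were read as log2 of a ratio and used without change. Whether an offset was added to that ratio is not given in the sources used. CASAVA, Trimmomatic 0.38, HISAT2 2.1.0, featureCounts and mm10 are listed, per the submitters' processing notes. What each tool did, the windows of the index and the use of strand are not given in the sources used. Without a known depth for any library no interval from counts can be given, and precision is read from the difference between replicates. The labels do not state that replicates were separate cultures, so the spread, and every p-value, may be technical.

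Transcripts were matched without version to GENCODE M21, and 76 did not match. Each gene was represented by its measured transcript of longest genomic span. The index was fitted on log10 span by least squares in each library, and residuals were taken. Control and knockout slopes were compared by an exact permutation test over libraries. Families were defined by symbol. Genes named were the 15 protein-coding and 5 noncoding genes at each end with the most extreme mean residual among those in both libraries' 100 and without a low-resolution value, the 5 highest and 5 lowest protein-coding genes by index, up to 2 at each end of a family, and Mettl3, Pou5f1, Sox2 and Nanog. Some genes taken by this rule are not reported here. Genes and lists were chosen with earlier results of these data known. Promoters were matched to RefSeq by gene identifier, symbol or start, leaving out chromosome 18. Python 3.11.15, pandas 2.3.3, numpy 2.4.6, scipy 1.17.1 and matplotlib 3.10.9 were used, and the fit was tested on simulated data. Alternatives were protein-coding genes alone, the mean over distinct transcripts, spliced length, a running median, a pseudocount of 0.4, removal of low-resolution values, each library left out and, chosen after seeing the data, the APPRIS principal transcript and subsets of promoters.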

Additional observations from a re-analysis of the deposited data

How the results depend on the processing

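The slope per doubling of span was 0.935 as reported, 0.843 over protein-coding genes alone, 0.850 with the mean over a gene's distinct transcripts, 1.15 with spliced length, 0.855 with a pseudocount of 0.4 and 0.917 without low-resolution values. Long noncoding minus protein-coding (-0.69 as reported) was -0.26 with the mean over transcripts, -1.02 with spliced length, -0.56 against the running median and -0.59 without low-resolution values. Single-exon minus multi-exon (-0.62) was -0.94 with the line fitted to protein-coding genes alone, -0.29 with the mean over transcripts, -3.48 with spliced length and -0.21 against the running median. Small RNA hosts minus others (0.14) was 0.26 with that line, turned to -0.012 with the mean over transcripts, and was 0.78 with spliced length, 0.29 against the running median, 0.23 with the pseudocount, 0.12 without low-resolution values and 0.26 without genes overlapping another of 1 kb or more. Bidirectional minus other starts (0.17) was 0.15, 0.0275, 0.0812, 0.12, 0.16 and 0.15 with that line, with the mean over transcripts, with spliced length, against the running median, with the pseudocount and without low-resolution values. Spearman's rho of promoter GC with the residual (0.0886) was 0.111, 0.0983, 0.121, 0.103, 0.102 and 0.0864 under these settings in that order, and 0.0944 with the APPRIS principal transcript. Genes extreme in both libraries numbered 128 as reported, 63 with 50 genes at each end and 257 with 200. The TATAAA difference (-1.20) was -1.38 in the upper 4 quintiles of CpG and -0.51 in the lowest, and -1.43 and -0.29 with promoters starting within 50 bases of the transcript. The cause of these changes was not tested. Of 40 family medians, 12 changed sign under 1 or more settings, and of 50 named genes, 1 did (Pou5f1).

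The slope difference between control and knockouts (0.0431) kept its direction throughout, from 0.0169 over protein-coding genes alone to 0.0695 with spliced length. It was 0.0399 to 0.0462 with 1 library left out in turn. The replicate numbers of the labels are not stated to pair the libraries. With the replicate number as a block the difference was 0.0431 (exact permutation test, p = 0.222, the smallest its 9 arrangements allow). The running median gives no slope, and 1 control library alone gives no count of genes extreme in both. Unknown depth leaves the precision of single genes to the difference between replicates.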
